A study of Mus musculus with 6 samples.

Results

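The transcripts of the mouse mitochondrial genome were examined in liver RNA of wild-type (WT) and Sirt7 knockout (Sirt7 KO) mice. They were taken as every gene of GENCODE M21 (GRCm38) whose symbol starts with mt-, which gave 37 of 54115 genes, namely 13 mRNAs, 2 rRNAs and 22 tRNAs. The study sequenced liver RNA from 3 male mice of each genotype, all 24 months old and all fasted for 16 h before collection, to look into how loss of Sirt7 bears on hepatic expression of the hormone FGF21 in aged males. The knockout is carried in the germline and is not limited to the liver, and the line was backcrossed to C57BL/6J and bred from heterozygous parents so that WT littermates served as controls. No other allele or agent is named for either group.

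The mitochondrial genome is a small circle that is transcribed from both strands into long RNAs, which are then cut, mostly at the tRNAs lying between the other genes, into mRNAs, rRNAs and tRNAs. Its mRNAs encode subunits of respiratory complexes I, III and IV and of the ATP synthase (complex V), and its rRNAs build the ribosome that translates them inside the organelle. Hepatocytes are rich in mitochondria. SIRT7 is a nuclear deacylase and is encoded, like all factors that copy and transcribe the mitochondrial genome, by the nucleus.

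Between 9955504 and 13373846 reads per mouse were assigned to genes, and the mitochondrial genes held between 179950 and 357812 of these. Levels are given as CPM, the reads of a gene scaled to the total of reads assigned to genes in that mouse, and spreads as SD over n = 3 mice per genotype. As a check of the labels, Sirt7 was at 61.8, 44.6 and 47.8 CPM in the WT mice and at 28.2, 39.6 and 38.7 CPM in the Sirt7 KO mice. All KO mice were thus below all WT mice, although reads from the Sirt7 locus remained and the difference did not pass the test (log2 fold change -0.41, SE 0.18, edgeR adjusted p = 0.42) and turned to 0.81 in DESeq2 with transcript-length offsets (adjusted p = 0.073). The 6 hepatocyte markers, Alb among them, summed to between 41002 and 47758 CPM per mouse, so the labelled tissue was found in every library. In bulk RNA, fewer cells of a type and less RNA per cell cannot be told apart.

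Some mitochondrial genes share sequence with each other or with the nucleus, which limits what a read can tell. The stretches below show some of the places. The first pair sets mt-Co1, bases 1046 to 1086 counted from 1 at its 5′ end, against Gm29216, a pseudogene on chr1:24615706-24616197 (minus strand, GRCm38). In this pair capitals mark the 6 differences, T1056A, C1057T, A1059G, A1060G, C1062A and A1066T, each written as the mt-Co1 base, the position in mt-Co1 and the Gm29216 base. The last 2 lines are mt-Ts1 (chrM:6870-6938, minus strand), the tRNA with the most reads, with capitals for the 3 bases opposite the end of mt-Co1, and mt-Atp8 (chrM:7766-7969, plus strand), with capitals for the 43 bases it shares with mt-Atp6. All are from the GENCODE M21 transcripts.
mt-Co1: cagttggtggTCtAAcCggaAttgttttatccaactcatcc
Gm29216: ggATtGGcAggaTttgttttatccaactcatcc
mt-Ts1: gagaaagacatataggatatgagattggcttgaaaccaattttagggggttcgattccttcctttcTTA
mt-Atp8: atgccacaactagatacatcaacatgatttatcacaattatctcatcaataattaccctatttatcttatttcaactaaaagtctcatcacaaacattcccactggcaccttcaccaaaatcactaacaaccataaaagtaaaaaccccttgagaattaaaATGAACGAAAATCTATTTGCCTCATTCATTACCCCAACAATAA

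Beyond these differences, all 479 bases from 1067 to 1545 of mt-Co1 were identical in Gm29216, so a read from this stretch fits both genes. A read in the capital part of mt-Atp8 likewise fits both mRNAs of complex V. Whether the authors' read assignment used strand is not given in the sources used here. Reads of overlapping genes on opposite strands, such as mt-Co1 and mt-Ts1 or mt-Nd5 and mt-Nd6 (14 bases), thus cannot be told apart there. If strand was not used, RNA of the opposite strand along the whole length of a gene would count toward it too. The levels of mt-Nd6 and of the minus-strand tRNAs carry this limit, as do those of the other genes.

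Mitochondrial genes held a similar share of the library in both genotypes, but the Sirt7 KO mice lay on both sides of the WT mice. The share was 2.37%, 2.44% and 2.68% of reads assigned to genes in the WT mice. In the Sirt7 KO mice it was 3.17%, 1.93% and 1.65%. KO mouse 1 was thus above all WT mice, KO mice 2 and 3 were below all of them, and the genotypes overlapped. The means were 2.50 ± 0.158% in WT and 2.25 ± 0.808% in Sirt7 KO, a difference of -0.250 percentage points. Without KO mouse 1 the difference was -0.710 percentage points, without KO mouse 2 it was -0.0913, without KO mouse 3 it was 0.0497 and without WT mouse 3 it was -0.162, so its size and direction rested on which mice were included.

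**Figure D1:**
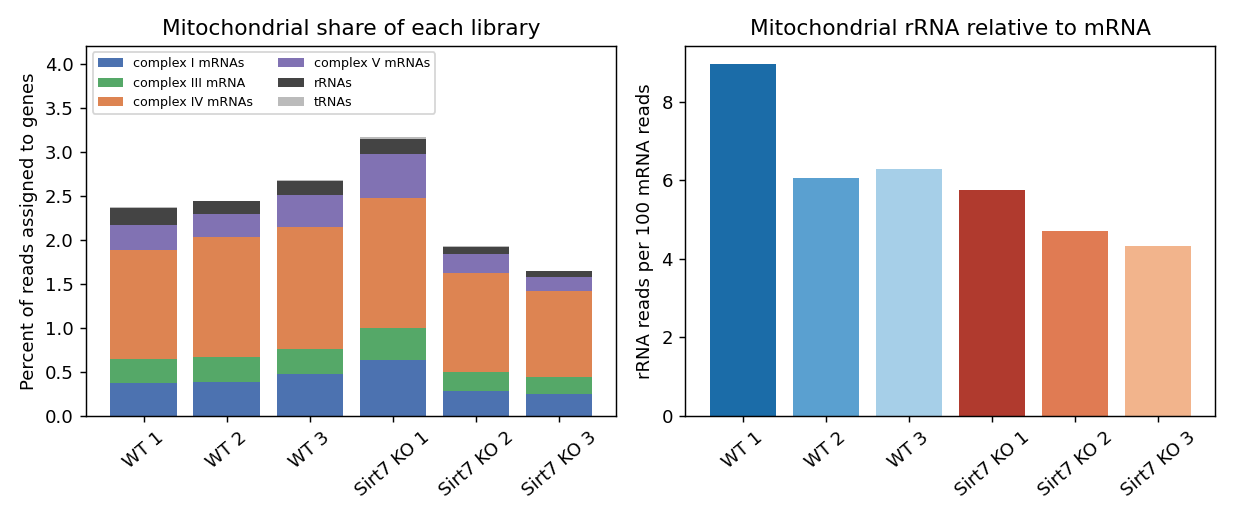
Left, percent of the reads assigned to genes that fell on mitochondrial genes in each mouse, stacked by class; right, rRNA reads per 100 mRNA reads of the mitochondrial genome in each mouse. Sirt7 KO mouse 1 has the tallest stack (3.17%) and Sirt7 KO mouse 3 the shortest (1.65%), while on the right all Sirt7 KO bars are below all WT bars.

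Messenger RNAs made up nearly all of this signal, with 2.17%, 2.30% and 2.50% of gene reads in WT and 2.98%, 1.83% and 1.57% in Sirt7 KO. The rRNAs held 0.194%, 0.139% and 0.158% in WT and 0.171%, 0.0861% and 0.0680% in Sirt7 KO. The tRNAs held between 0.0076% and 0.0178%. Every class was lowest in KO mouse 3, and the mRNAs and tRNAs were highest in KO mouse 1. The libraries were made with a template-switching kit from total RNA, and rRNAs and tRNAs, which lack long poly(A) tails, are poorly captured by such kits, so levels cannot be compared between classes.

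Of the 13 mRNAs, those of complex IV, the cytochrome c oxidase that passes electrons to oxygen, held most reads. mt-Co3 was the most abundant per length, at 7904 ± 680.1 CPM per kb of gene in WT and 7068 ± 1553 in Sirt7 KO. It was followed by mt-Atp6 of the ATP synthase (3769 ± 690.2 in WT and 3642 ± 2451 in Sirt7 KO) and by mt-Co1, the catalytic subunit of complex IV (3299 ± 236.4 and 2961 ± 549.1). Within mice, mt-Atp6 was above mt-Co1 in every WT mouse and in KO mouse 1 but below it in KO mice 2 and 3. mt-Co2 (2910 ± 85.8 and 2636 ± 768.6) was below mt-Co1 in every mouse except KO mouse 1, where they were at 3500 and 3493. The place of mt-Co1 in this order is uncertain. Gm29216, with its 479 bases identical to mt-Co1, was assigned between 35.3% and 41.6% of the reads of both.

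Next on this scale came mt-Cytb, the complex III subunit (mean of all mice 2353 CPM per kb), mt-Atp8 (2214), mt-Nd1 (1246), mt-Nd4 (1018) and mt-Nd2 (620.7). The lowest mRNAs were other subunits of complex I, the NADH dehydrogenase, namely mt-Nd5 (293.3), mt-Nd6 (204.0), mt-Nd4l (195.7) and mt-Nd3 (132.3). mt-Nd6 is the only mRNA encoded on the minus strand. mt-Nd3 was below mt-Nd6 and mt-Nd4l in every mouse. The order of mt-Nd6 and mt-Nd4l is not resolved, since it changed between mice. They were at 224.3 and 233.6 CPM per kb in WT mouse 3 and at 378.8 and 324.7 in KO mouse 1. The effective lengths deposited for mt-Nd3, mt-Nd4l and mt-Atp8, 98.0, 48.7 and 9.38 bases, are far below their 348, 297 and 204 bases, so their levels per kb are uncertain.

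**Figure D2:**
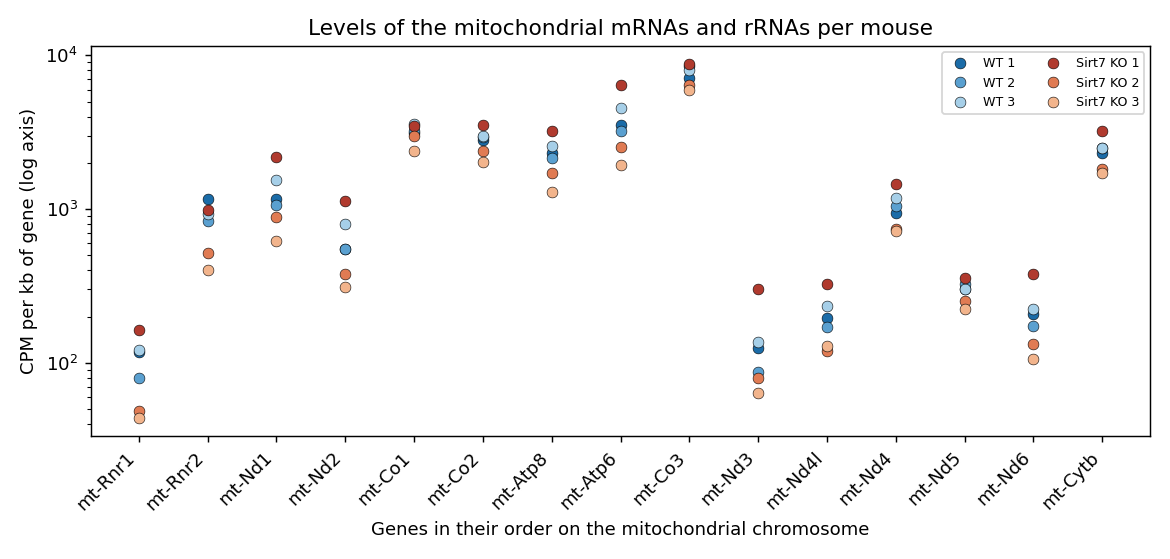
CPM per kb of gene (log axis) of the 13 mRNAs and 2 rRNAs, in their order on the mitochondrial chromosome, with 1 point per mouse. mt-Co3 is the highest gene, the points of Sirt7 KO mouse 1 are at or near the top of each column and those of Sirt7 KO mice 2 and 3 at the bottom.

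The same order of mice recurred in nearly every gene. Both KO mice 2 and 3 were below all WT mice in 15 of 15 mRNAs and rRNAs, and KO mouse 1 was above all WT mice in 13 of 15. This grouping of the mice was chosen after the values were seen, and the share of all genes tested that place the mice in this way was not counted. At least 12.7% of all genes tested had KO mice 2 and 3 below all WT mice, since in that share every KO mouse was. KO mouse 1 was above KO mouse 3 in 50.6% of the 8891 nuclear genes with a mean of at least 50 reads. The mitochondrial genes in which KO mouse 1 was not above all WT mice were mt-Co1 and mt-Rnr2. The mitochondrial genes share long precursor RNAs and a library, so they are not independent of each other.

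Among the mRNAs of complex I were the most variable ones. mt-Nd3 was at 43.4, 30.3 and 47.6 CPM in WT and at 105.4, 27.5 and 22.2 CPM in Sirt7 KO. mt-Nd2 was at 574.9, 570.0 and 836.2 CPM in WT and at 1166, 393.8 and 324.8 CPM in Sirt7 KO. For both, KO mouse 1 was far above the WT mice and the other KO mice below them.

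A like pattern was seen for mt-Nd1, with 1121, 1019 and 1488 CPM in WT and 2079, 849.9 and 595.1 CPM in Sirt7 KO. mt-Nd6 was at 108.6, 90.0 and 116.4 CPM in WT and at 196.6, 68.5 and 55.2 CPM in Sirt7 KO. In mt-Nd4l, which was at 57.9, 51.1 and 69.4 CPM in WT and 96.4, 35.7 and 38.3 CPM in Sirt7 KO, the lowest mouse was KO mouse 2. mt-Nd4 (986.3 to 2017 CPM over the mice) and mt-Nd5 (408.5 to 651.7 CPM) placed the KO mice on either side of the WT mice in the same way, with smaller steps.

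The mRNAs of the ATP synthase placed the KO mice in the same way. mt-Atp6, the proton channel subunit, was at 2414, 2192 and 3094 CPM in WT and at 4393, 1732 and 1316 CPM in Sirt7 KO. mt-Atp8, a small subunit, was at 470.4, 438.5 and 522.3 CPM in WT and at 661.2, 353.0 and 264.4 CPM in Sirt7 KO. Again KO mouse 1 was the highest and KO mouse 3 the lowest.

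The mRNAs of complex IV took smaller steps between mice than most of those above. mt-Co1 was at 4824, 4956 and 5512 CPM in WT and at 5396, 4628 and 3702 CPM in Sirt7 KO, so that KO mouse 1 lay within the WT range. mt-Co3 was at 5628, 6686 and 6277 CPM in WT and at 6928, 5046 and 4650 CPM in Sirt7 KO. mt-Co2, which with mt-Co1 forms the redox core, was at 1923, 2017 and 2031 CPM in WT and at 2394, 1629 and 1386 CPM in Sirt7 KO.

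mt-Cytb, the only complex III mRNA of this genome, was at 2665, 2873 and 2866 CPM in WT and at 3687, 2088 and 1969 CPM in Sirt7 KO. The ratio of KO mouse 1 to KO mouse 3 ran from 1.46 for mt-Co1, 1.49 for mt-Co3 and 1.60 for mt-Nd5 through 1.73 for mt-Co2 and 1.87 for mt-Cytb to 3.49 for mt-Nd1, 3.59 for mt-Nd2 and 4.76 for mt-Nd3, so that the complexes overlapped in spread. Among WT mice the ratio of the highest to the lowest mouse ran from 1.06 for mt-Co2 to 1.57 for mt-Nd3.

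Genes that varied more among KO mice tended to vary more among WT mice. Across the 15 mRNAs and rRNAs, the ratio of KO mouse 1 to KO mouse 3 and the ratio of the highest to the lowest WT mouse had a Spearman's rho of 0.88. The 2 ratios share no library, but the genes share precursors and base composition. The KO ratio also ran against GC content (rho -0.55) and length (rho -0.46) over the same 15 genes, whose GC content lay between 31.9% and 41.1%. Among nuclear genes with a mean of at least 50 reads, the 761 in this GC range had a median log2 ratio of KO mouse 1 to KO mouse 3 of 0.27, and the 8129 of higher GC content had a median of -0.02. The median of the 15 mitochondrial genes was 1.32, beyond the upper quartile of the nuclear genes of like GC content (0.63), and the part of base composition in the pattern was not tested.

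**Figure D3:**
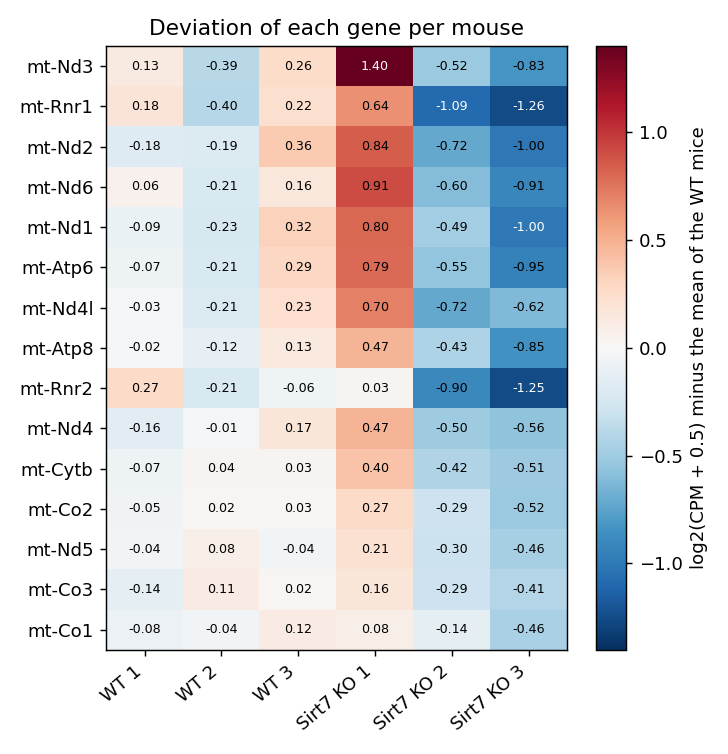
Deviation of log2(CPM + 0.5) from the mean of the 3 WT mice, for each of the 15 mRNAs and rRNAs (rows, sorted by the ratio of Sirt7 KO mouse 1 to mouse 3) in each mouse (columns); red is higher and blue lower. Sirt7 KO mouse 1 is red in every row, only faintly for mt-Co1 and mt-Rnr2 and most strongly for mt-Nd3 in the top row. Sirt7 KO mice 2 and 3 are blue in every row, and the deepest blue is that of mt-Rnr1 and mt-Rnr2 in Sirt7 KO mouse 3.

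The spread itself was wider among KO mice. The SD of log2(CPM + 0.5) had a median over the 13 mRNAs of 0.17 in WT and 0.68 in Sirt7 KO. The 233 nuclear genes of at least 500 CPM had medians of 0.16 and 0.18, and all 12524 genes tested had 0.26 and 0.27. The difference in spread was not tested with 3 mice per genotype.

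Markers of other cells moved in part with this order. The 6 lymphocyte markers summed to 6.5, 3.6 and 8.4 CPM in WT and to 9.6, 3.6 and 3.2 CPM in Sirt7 KO, with KO mouse 1 highest and KO mouse 3 lowest. The 6 Kupffer cell markers summed to 43.3, 42.0 and 132.3 CPM in WT and to 109.7, 38.2 and 71.6 CPM in Sirt7 KO, and the 6 stellate cell markers to between 161.8 and 210.3 CPM in WT and between 128.3 and 209.2 CPM in Sirt7 KO. Both sums were highest in WT mouse 3 and KO mouse 1, which also had the largest mitochondrial shares. Single markers followed in part. Vsig4, Cd5l, Adgre1, Lrat, Reln, Dcn and Des were each highest in these mice, whereas Clec4f, Marco, Timd4, Col1a1 and Col3a1 were not. Dcn, at 96.0 to 171.7 CPM, made up most of the stellate sum, and Marco was at 43.3 CPM in WT mouse 3 and 3.07 CPM in KO mouse 1. The 5 erythroid markers, at 814.5 CPM in KO mouse 1 and 869.9 CPM in KO mouse 3, did not follow the mitochondrial share. Endothelial markers (60.1 to 94.6 CPM) and cholangiocyte markers (47.8 to 75.03 CPM) did not either, no list held a marker at 0 in all mice, and the part of these cells in the result was not tested.

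The make-up of the mRNA pool also differed between mice. Complex IV mRNAs took 57.1%, 59.5% and 55.2% of mitochondrial mRNA reads in WT and 49.4%, 61.6% and 62.0% in Sirt7 KO. Complex I mRNAs took 17.3%, 16.5% and 18.9% in WT and 21.2%, 15.6% and 15.5% in Sirt7 KO. The ATP synthase took 13.3%, 11.5% and 14.4% in WT and 17.0%, 11.4% and 10.1% in Sirt7 KO, whereas mt-Cytb stayed between 11.4% and 12.5% in all mice. For complexes I, IV and V, KO mouse 1 lay at one end of the range and KO mouse 3 at the other, and the genotypes overlapped for all 4. Genotype means were close for each mRNA, such as 26.7 ± 2.13% and 26.8 ± 3.22% for mt-Co3 and 21.9 ± 0.334% and 22.3 ± 3.71% for mt-Co1.

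In the test between genotypes none of the mitochondrial genes passed. Of the 23 mitochondrial genes with enough reads to be tested (13 mRNAs, both rRNAs and 8 tRNAs), edgeR called 0 at an adjusted p under 0.05 with a fold change over 1.5, and 0 had an unadjusted p under 0.05. DESeq2 also called 0 of them, with or without length offsets. Over all 12524 genes tested, edgeR called 0.00798% in either direction and 11.3% had an unadjusted p under 0.05, and DESeq2 called 2.11%, or 1.81% with transcript-length offsets. None of the 23 had CPM values that separated the genotypes, against 18.4% of all genes tested.

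Log2 fold changes of the mRNAs (Sirt7 KO over WT) ran from -0.07 for mt-Atp8 to 0.45 for mt-Nd3, with 6 positive and 7 negative and a median of -0.02, beside a median of -0.01 over all genes tested. The standard errors ran from 0.19 for mt-Nd5 to 0.50 for mt-Nd3. Changes within these errors, and also some beyond them, were not detectable with 3 mice per genotype. In the same fit mt-Rnr2, at -0.51 with an SE of 0.29, had an edgeR adjusted p of 0.57. mt-Nd3 had the smallest adjusted p of the mRNAs (0.79). Scaling by total counts instead of TMM moved the median of all genes to -0.11, with 63.4% of genes negative instead of 50.7%, and turned mt-Nd1, mt-Nd2, mt-Atp6 and mt-Nd4l from slightly positive to slightly negative.

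The median of the mRNAs rested on which mice were included. With KO mouse 1 left out, all 13 mRNAs were negative, from -0.76 for mt-Nd2 to -0.17 for mt-Co1 with a median of -0.50, and 8 of them had an unadjusted p under 0.05, although the smallest adjusted p was 0.11 (mt-Nd6). In that fit 8.12% of all 12921 genes tested were lower at an unadjusted p under 0.05 and 17.1% differed in either direction. The rRNAs then passed the test, with mt-Rnr1 at -1.07 (adjusted p = 0.039) and mt-Rnr2 at -0.94 (adjusted p = 0.042) by edgeR on 3 WT and 2 Sirt7 KO mice, where 0.673% of all genes were called lower and 1.95% in either direction. The median of the mRNAs was 0.12 without KO mouse 2, 0.18 without KO mouse 3, 0.08 without WT mouse 3 and -0.13 without WT mouse 1. Over all genes, KO mouse 1 stood apart from KO mice 2 and 3 (chi-square per gene 53.7 and 42.8, against 15.8 between KO mice 2 and 3), as did WT mouse 1 from WT mice 2 and 3 (57.4 and 65.6, against 23.3), and no label sets either mouse apart.

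**Figure D4:**
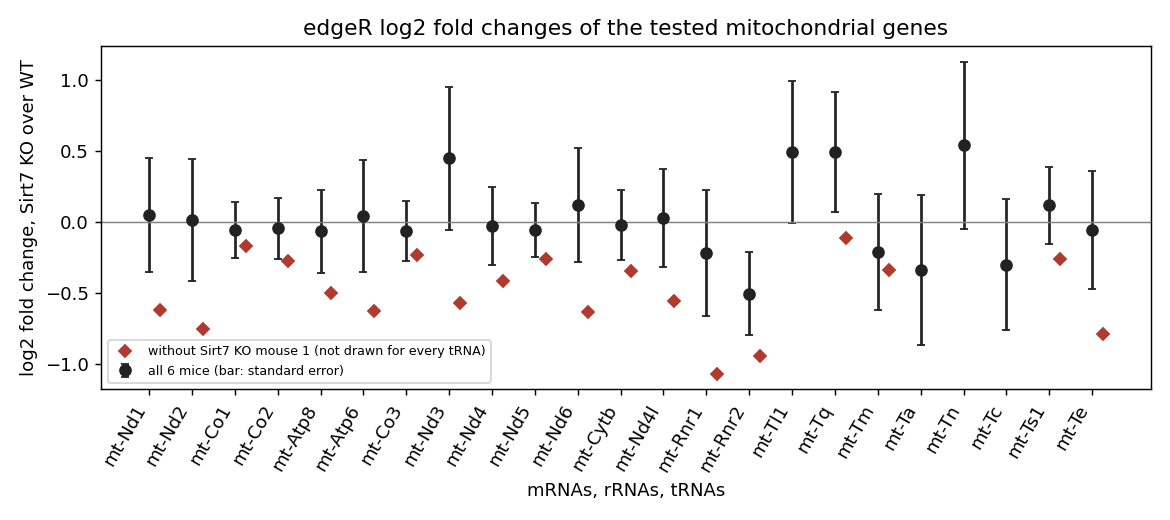
edgeR log2 fold changes (Sirt7 KO over WT) of the 23 tested mitochondrial genes with all 6 mice (black circles, bars are standard errors) and, for 19 of them, without Sirt7 KO mouse 1 (red diamonds). The black circles lie around 0 while all red diamonds are below 0, lowest for mt-Rnr1 at -1.07.

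The rRNAs are the structural RNAs of the small (mt-Rnr1) and large (mt-Rnr2) subunit of the mitochondrial ribosome. mt-Rnr2 was at 1831, 1314 and 1460 CPM in WT and at 1556, 814.4 and 638.3 CPM in Sirt7 KO. mt-Rnr1 was at 112.9, 75.4 and 116.2 CPM in WT and at 156.1, 46.7 and 41.5 CPM in Sirt7 KO. KO mouse 1 was within the WT range for mt-Rnr2 and above it for mt-Rnr1. With all mice, the log2 fold changes were -0.51 (SE 0.29, edgeR adjusted p = 0.57) for mt-Rnr2 and -0.22 (SE 0.44, adjusted p = 0.90) for mt-Rnr1.

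Relative to the mRNAs, the sum of both rRNAs was lower in Sirt7 KO. This sum is mostly mt-Rnr2, which had between 9.96 and 17.4 reads per mt-Rnr1 read in the mice, so it says little of mt-Rnr1 alone. There were 8.97, 6.05 and 6.29 rRNA reads per 100 mRNA reads in WT and 5.75, 4.70 and 4.32 in Sirt7 KO, and every KO mouse was below every WT mouse. The means were 7.10 ± 1.62 and 4.92 ± 0.739. Of all genes tested, 12.7% had CPM values lower in every KO mouse than in every WT mouse, and a sum over chosen genes was not tested. WT mouse 1 sets much of the difference, since without it the difference of the means fell from -2.18 to -1.25. On the TPM scale the genotypes also did not overlap, with 1.84, 1.34 and 1.34 rRNA TPM per 100 mRNA TPM in WT and 1.18, 1.04 and 1.04 in Sirt7 KO. That scale rests largely on mt-Atp8, which had the highest TPM of the mitochondrial mRNAs (24782 to 55412) at an effective length of 9.38 bases.

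Neat1, a long RNA retained in the nucleus, also separated the genotypes, with 1426, 770.6 and 581.6 CPM in WT and 406.2, 384.2 and 486.1 CPM in Sirt7 KO (log2 fold change -0.99, SE 0.27, edgeR adjusted p = 0.22, DESeq2 adjusted p = 0.0064). Malat1, the other such RNA in the list, had a log2 fold change of 0.06 (edgeR adjusted p = 0.97). Their part in the rRNA ratio was not tested.

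Among the 22 tRNAs, which carry amino acids to the mitochondrial ribosome, 8 lie on the minus strand and 14 on the plus strand. The minus-strand tRNAs held between 95.9% and 97.1% of tRNA reads in every mouse. mt-Ts1, a serine tRNA, alone held between 80.2% and 86.0%, with 97.2, 78.7 and 108.9 CPM in WT and 143.0, 82.2 and 62.8 CPM in Sirt7 KO. KO mouse 1 was again highest and KO mouse 3 lowest, and the log2 fold change was 0.12 (SE 0.27, edgeR adjusted p = 0.92).

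mt-Ts1 lies directly behind mt-Co1 on the opposite strand, and there were between 1.59 and 2.65 mt-Ts1 reads per 100 mt-Co1 reads in the mice. mt-Te, a glutamate tRNA, had 470 reads over all mice (3.72 to 11.9 CPM), mt-Tq, a glutamine tRNA, had 340 (3.02 to 9.75 CPM) and mt-Tm, the methionine tRNA and the first on the plus strand by reads, had 109 (1.19 to 1.87 CPM). Of these, mt-Te and mt-Tq were highest in KO mouse 1. Their log2 fold changes were -0.06 (SE 0.42) for mt-Te, 0.49 (SE 0.42) for mt-Tq and -0.21 (SE 0.41) for mt-Tm. The 8 tested tRNAs split into 4 positive and 4 negative with a smallest adjusted p of 0.72, and mt-Td, mt-Tr and mt-Ts2 were at 0 reads in all mice. How far reads at genes this short come from mature tRNAs, and from which strand, was not tested.

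Among copies of mitochondrial DNA in the nuclear genome, that of mt-Co1 alone was assigned many reads. A block on chromosome 1 holds 7 pseudogenes that share over 50% of their 31-base words with mt-Co1, mt-Co2, mt-Atp6, mt-Co3, mt-Nd3, mt-Nd4l or mt-Nd4. Of these, 5 had 0 reads in every mouse, and Gm28438, the copy of mt-Nd3, had 8.51 reads in all. The 5 are 100% identical to stretches of mt-Nd4l, mt-Nd4, mt-Atp6, mt-Co3 or mt-Co2. Gm28438 differs from mt-Nd3 at 1 base. Reads from the identical stretches fit both genes, so the 0 reads do not show that the copies are silent. The levels of these mRNAs by themselves carry the same limit. Gm29216, the copy of the end of mt-Co1, had 3435, 3124 and 3008 CPM in WT and 3114, 2721 and 2262 CPM in Sirt7 KO. The copies on chromosome 2, Gm13340 (49.7 reads in all, closest to mt-Co1) and Gm13341 (48.6 reads, closest to mt-Co2), share under 50% of their words.

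Gm29216 held between 35.3% and 41.6% of the reads of itself and mt-Co1 together, and per kb it had more reads than mt-Co1 in every mouse. Its highest mouse was WT mouse 1 rather than KO mouse 1, and its log2 fold change was -0.13 (SE 0.17, edgeR adjusted p = 0.82). Given the 479 identical bases shown above, the level of mt-Co1 by itself is uncertain. Both together took 0.826%, 0.808% and 0.852% of gene reads in WT and 0.851%, 0.735% and 0.596% in Sirt7 KO, and KO mouse 1 remained within the WT range while KO mice 2 and 3 remained below it.

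The nuclear genes that express the mitochondrial genome did not pass the test either. Of 71 listed genes for mitochondrial transcription, replication, RNA processing and modification, translation and their regulators, 70 were tested, 41 with a positive and 29 with a negative log2 fold change (median 0.05). edgeR called 0. At an unadjusted p under 0.05 there were 2 higher and 0 lower, beside 6.54% and 4.78% of all genes tested. In CPM, 2 were above and 8 below all WT mice, beside 5.70% and 12.7% of all genes.

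Tfam, which packages and helps transcribe mitochondrial DNA, was at 43.6, 37.2 and 35.0 CPM in WT and 36.2, 42.4 and 38.3 CPM in Sirt7 KO. Polrmt, the mitochondrial RNA polymerase, was at 24.8, 33.1 and 20.9 CPM in WT and 25.7, 24.2 and 22.2 CPM in Sirt7 KO. Both overlapped between genotypes, and their log2 fold changes were 0.13 (SE 0.14) and -0.03 (SE 0.20). That of Polrmt took either sign under the alternatives.

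Ppargc1a, the coactivator PGC-1α that raises mitochondrial biogenesis, was at 13.9, 9.08 and 10.6 CPM in WT and 4.06, 10.7 and 8.79 CPM in Sirt7 KO. It was lowest in KO mouse 1, where mitochondrial mRNAs were highest, and had a log2 fold change of -0.39 (SE 0.34, edgeR adjusted p = 0.72), which became -0.06 without KO mouse 1 and -0.68 without KO mouse 2, and was -0.19 in DESeq2 with length offsets. Gabpb1, a subunit of the activator GABP (NRF2), which acts on nuclear genes for mitochondrial proteins, had one of 0.38 (SE 0.33, edgeR adjusted p = 0.72), which ran from 0.20 without WT mouse 1 to 0.67 without WT mouse 2 and was 0.23 without KO mouse 2.

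Among the listed nuclear genes the smallest unadjusted p values belonged to Top1mt, the mitochondrial topoisomerase, and Tufm, a translation elongation factor. Top1mt had a log2 fold change of 0.55 (SE 0.20, edgeR adjusted p = 0.34) and Tufm one of 0.36 (SE 0.13, edgeR adjusted p = 0.36). Tufm was at 74.9, 69.6 and 69.2 CPM in WT and 78.7, 89.4 and 86.1 CPM in Sirt7 KO, without overlap. Next came Mgme1, a nuclease of mitochondrial DNA replication (0.50, SE 0.23), Polg, the replicative polymerase (0.35, SE 0.16), and Rnaseh1, which removes RNA from RNA-DNA hybrids (0.62, SE 0.29), with adjusted p values of 0.46, 0.46 and 0.47. Polg was 0.23 without KO mouse 3 and 0.13 in DESeq2 with length offsets, and Rnaseh1 was 0.39 without KO mouse 2. By group, the translation genes had 8 positive and 3 negative (median 0.27) and the regulators 2 positive and 6 negative (median -0.22), with no call in either.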

How the data were processed

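Liver RNA of 3 WT and 3 Sirt7 KO mice was sequenced after SMART-seq HT amplification and Nextera XT library preparation, and groups were taken from the sample labels. The authors trimmed reads with Trim Galore 0.6.5 and quantified them with Salmon 1.2.1 on GRCm38 transcripts; the annotation release is not given in the sources used here. The authors deposited estimated counts per transcript, TPM and transcript lengths for each mouse, without pooling. Estimated counts were summed over 140992 transcripts to genes of GENCODE M21 (1201 transcripts had no gene there) and rounded for tests. Deposited TPM values entered alternatives only, and deposited effective lengths served for offsets. Genes kept by filterByExpr (minimum count 10) were fitted with edgeR 4.0.16 (quasi-likelihood, TMM, R 4.3.3), with Benjamini-Hochberg adjustment over 12524 genes and calls at 0.05 and a fold change over 1.5. The scripts were tested on simulated data. Alternatives included DESeq2 1.42.0, other scalings and filters, a replicate block and leaving out each mouse. Named were all mRNAs and rRNAs, and the 4 tRNAs and 3 nuclear copies with the most reads. Of the nuclear list, 4 regulators and the 5 members with the smallest p were named. Neat1, Malat1 and Gm28438 were named after their values were seen, and the comparisons of spread and GC content were added then too. The members and gene lists were chosen with earlier results of these data known. Depth was 9955504 to 13373846 reads per mouse; no molecular identifiers are named, so precision from depth covers counting error only. The mice of a group differed by more than sampling noise (chi-square per gene at least 15.8), so each counted as 1 sample. That they were separate animals rests on the labels.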

Additional observations from a re-analysis of the deposited data

How the results depend on the processing

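The count of 0 called mitochondrial genes held under every scaling, filter and DESeq2 alternative, where 166 values of single mitochondrial genes kept their direction and side of the threshold and 4 reversed. Leaving out each mouse gave 0 to 2 called genes, a share difference of -0.710 to 0.0497 percentage points, a median log2 fold change of the mRNAs of -0.50 to 0.18 and a difference in rRNA reads per 100 mRNA reads of -2.71 to -1.25. Log2 fold changes ranged over these fits as follows: Ppargc1a -0.68 to -0.0601, Gabpb1 0.20 to 0.67, Mgme1 0.36 to 0.65, Polg 0.23 to 0.49, Rnaseh1 0.39 to 0.80, Polrmt -0.16 to 0.22, mt-Atp6 -0.63 to 0.34, mt-Atp8 -0.50 to 0.18, mt-Co1 -0.17 to 0.0674, mt-Co2 -0.28 to 0.10, mt-Co3 -0.23 to 0.036, mt-Cytb -0.34 to 0.13, mt-Nd1 -0.62 to 0.36, mt-Nd2 -0.76 to 0.32, mt-Nd3 -0.57 to 0.80, mt-Nd4 -0.41 to 0.14, mt-Nd4l -0.56 to 0.26, mt-Nd5 -0.26 to 0.064, mt-Nd6 -0.63 to 0.42, mt-Rnr1 -1.07 to 0.0878, mt-Rnr2 -0.94 to -0.28, mt-Te -0.79 to 0.21, mt-Tq -0.11 to 0.72, mt-Ts1 -0.26 to 0.34. With total counts, mt-Nd1 was -0.0423, mt-Nd2 -0.072, mt-Atp6 -0.0492 and mt-Nd4l -0.0657. The rRNA difference on the TPM scale was -0.421 TPM per 100 mRNA TPM, a different unit. Without a filter, 1 of the nuclear genes of mitochondrial gene expression was called, Esrra, named after its values were seen. Its log2 fold change was -0.86 (edgeR adjusted p = 0.011), against -0.88 and 0.59 with the filter. The share of all genes called without a filter was not counted. Esrra was at 20.3, 19.2 and 23.9 CPM in WT and at 2.24, 12.2 and 17.3 CPM in Sirt7 KO, by far the lowest in KO mouse 1. DESeq2 with length offsets gave Polrmt 0.0789 and Sirt7 0.81, whose cause was not tested. Correlations of same-numbered mice were small (0.0611, 0.0778 and -0.0438). Those of the other pairs ran from -0.0995 to 0.0474, so 0.0611 and 0.0778 were the highest of all pairs. Whether replicate numbers pair the mice is thus not settled by these values. With the replicate block, 0 mitochondrial genes were called, the median of the mRNAs was -0.10, and mt-Nd1 was -0.13, mt-Nd2 -0.20, mt-Atp6 -0.14, mt-Nd6 -0.10, mt-Nd4l -0.11 and Polrmt 5e-04. Depth left 14 of the 22 tRNAs with too few reads to be tested.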

Other observations

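Deposited TPM values gave the mitochondrial genes a larger share than reads did, at 10.1%, 9.45% and 11.5% in WT and 14.3%, 8.62% and 6.94% in Sirt7 KO. mt-Atp8 took between 35.7% and 40.1% of mitochondrial TPM and mt-Ts1 between 23.6% and 29.0%, although mt-Ts1 had under 3% as many reads as mt-Co1. The effective length that enters TPM was 9.38 for the 204 bases of mt-Atp8 and 2.87 for the 69 bases of mt-Ts1. The order of the mice was the same on both scales except that WT mice 1 and 2 changed places.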
